A study of Homo sapiens with 23 samples.

Results

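Keratins 7, 8, 18 and 19, vimentin and 3 processed pseudogenes of KRT18 were followed through 23 RNA-seq libraries of 4 ovarian cancer cell lines and their prexasertib-resistant derivatives. Prexasertib inhibits CHK1, the checkpoint kinase that restrains replication and entry into mitosis when DNA is damaged. The lines OV-90, Kuramochi, OVSAHO and EFO-21 were each represented by parental cells and by a resistant derivative obtained by stepwise, long-term increase of the drug concentration, with 3 libraries per group except parental OV-90 with 2. The sources used here do not say whether a resistant derivative was 1 clone or a pool, or whether drug was present when RNA was taken. The 8 genes (KRT7, KRT8, KRT18, KRT19, KRT18P20, KRT18P28, KRT18P39 and VIM) are 8 of the 21658 genes in the table and were found by NCBI Gene ID. The 3 pseudogenes were selected on their resistant minus parental differences in these same libraries, lower in all 4 lines, so those differences are given as a description, with no test.

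Keratins are the intermediate filament proteins of epithelial cells and assemble as pairs of a type I and a type II chain. Simple, single-layered epithelia use KRT8 (type II) with KRT18 (type I), joined in many glands and ducts by KRT7 (type II) and KRT19 (type I). Vimentin, encoded by VIM, forms the intermediate filaments of mesenchymal cells and is also present in many cultured carcinoma cells. Processed pseudogenes arise when an mRNA is copied back into DNA and inserted elsewhere in the genome without its introns. The human genome holds many such copies of KRT8 and KRT18.

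On GRCh37, the build used by the authors, KRT18 (Gene ID 3875) lies on chromosome 12 at 53342655 to 53346690 on the plus strand, and its span overlaps that of KRT8 (Gene ID 3856) at 53290971 to 53343738 on the minus strand. KRT7 (Gene ID 3855) lies on the same chromosome at 52626304 to 52645970, KRT19 (Gene ID 3880) on chromosome 17 at 39679869 to 39684560, and VIM (Gene ID 7431) on chromosome 10 at 17270240 to 17279592. Each pseudogene is a single annotated block on the minus strand. KRT18P20 (Gene ID 121054) is on chromosome 12 at 105370527 to 105371805, KRT18P28 (Gene ID 343326) on chromosome 1 at 182928209 to 182929540, and KRT18P39 (Gene ID 344462) on chromosome 2 at 204629018 to 204630316. None of the 3 lies inside a measured gene.

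The pseudogenes differ from the KRT18 transcript by single bases scattered over their length and by inserted or missing bases. The alignments held 7 gaps for KRT18P20, 5 for KRT18P28 and 16 for KRT18P39. A 30-base window without a gap, across the KRT18 exon 2 to exon 3 junction, shows how close they are there. In the KRT18 gene these bases are parted by an intron of 339 bases (exon 2 ends at 53344194 and exon 3 starts at 53344534), while in each pseudogene they are continuous. Capitals mark bases that differ from KRT18, all sequences are read 5′ to 3′ on the strand of the gene, and positions count from the start of the KRT18 coding sequence (here 486 to 515).
KRT18: tgactttagagtcaagtatgagacagagct
KRT18P20: tgactttagGgtcaagtatgagacagagct
KRT18P28: tgactttagagtcaagtatgagacagagct
KRT18P39: tgactttagagtcaagtatgagacagagcC
KRT18P28 is identical to the spliced KRT18 transcript here, and the other two differ at 1 base each.

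A window in exon 1 (coding bases 175 to 204, chromosome 12 at 53343132 to 53343161) is shown because, among coding windows without a gap, it has the most differences summed over the 3 pseudogenes.
KRT18: gggtccgggggcctggccaccgggatagcc
KRT18P20: gggtccgggggcctggccGcGgggatGgcT
KRT18P28: gggtccgggggcctggccGcGgggatGgcT
KRT18P39: gggtccAggAgcAtggccGcAggTatGgcc
KRT18P20 and KRT18P28 carry the same 4 differences and KRT18P39 carries 7. Over the aligned bases, gaps not counted, the identity to the 1413-base KRT18 transcript was 93.1% for KRT18P20, 92.1% for KRT18P28 and 92.2% for KRT18P39. The longest runs without a difference were 60, 82 and 68 bases. Of all 50-base stretches, 1% of those in KRT18P20, 4.1% in KRT18P28 and 3.6% in KRT18P39 occur unchanged in the KRT18 transcript, and no 150-base stretch, the read length, does so in any of the 33 measured KRT18 pseudogenes. How reads that match several places were treated is not given in the sources used here, so the share of a pseudogene's value that came from KRT18 transcripts was not tested and the pseudogene values are uncertain in that sense.

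All values below are the authors' quantile-normalized log2 expression values, in which 1 unit is a 2-fold difference. They are not stated to be per transcript length, so levels were compared between libraries and not between genes. Libraries of a group correlated at 0.971 to 0.988 across genes, except the 2 parental OV-90 libraries at 0.952. Parental OV-90 library 2 and parental Kuramochi library 6 held KRT6B, a keratin of stratified epithelia, far above other libraries of their groups (7.32 and 6.61, against 1.13 to 1.59 in the others). Changes of the 8 genes within OV-90 and Kuramochi are also given without them. Without library 2 only library 3 is left for parental OV-90, so its spread cannot be measured and only the size of the difference is given. The 7 epithelial markers averaged 6.65 to 7.14 in the parental lines, with EPCAM group means of 6.47 to 12.3. Not all were present in each line. ESRP1 averaged 1.1 in parental OVSAHO, at or under the 10th percentile of the library in all 3, and GRHL2 averaged 1.28 to 3.14 in the parental lines. The ovarian serous marker PAX8 averaged 8.44 to 9.37 in the other parental lines, but 2.1 in parental OV-90, where the averages of the 5 serous and Mullerian markers ran from -0.05 to 4.38. In the other lines SOX17 averaged 11.92 to 12.47, but WT1 averaged 1.03 in parental EFO-21 and MUC16 2.48 in parental Kuramochi. Markers of leukocytes, endothelium and stroma were not uniformly absent. The leukocyte marker CD68 averaged 5.83 in parental and 6.69 in resistant OV-90, 4.18 and 6.97 in Kuramochi, 7.23 and 6.23 in OVSAHO and 8.45 and 9.72 in EFO-21. Averages over the 4 measured leukocyte markers were 5.43 and 4.96 in OV-90, 3.54 and 3.84 in Kuramochi, 4.62 and 2.94 in OVSAHO and 5.1 and 4.9 in EFO-21. Their part in the changes below was not tested. The stromal marker LUM averaged 12.76 in parental and 12.1 in resistant OV-90, 2.03 and 6.76 in OVSAHO, 2.24 and 4.28 in Kuramochi and 0.53 and 0.31 in EFO-21, while DCN averaged 2.05 and 6.27 in OVSAHO. The endothelial marker PECAM1 averaged 6.35 and 3.46 in OV-90 and 8.48 and 8.55 in EFO-21, and CDH5 averaged 4.75 and 7.62 in Kuramochi. Averages over the 6 stromal markers were 6.38 and 5.46 in OV-90, 3.45 and 3.23 in Kuramochi, 2.81 and 3.3 in OVSAHO and 2.42 and 2.79 in EFO-21, and their part in the changes below was not tested. In bulk RNA, fewer cells of a type and less RNA per cell cannot be told apart.

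KRT18 and its partner KRT8 were lower in the resistant cells of every line. KRT18 fell by 0.69 in OV-90, 1.13 in Kuramochi, 0.81 in OVSAHO and 0.75 in EFO-21, to between 0.457 and 0.621 of the parental level. KRT8 fell by 0.39, 0.77, 0.77 and 0.52 in the same order. Both genes passed the test (limma, adjusted p under 0.05) in 4 of 4 lines, which 0.706% of all genes did with a lower value. In single lines 17.9% of genes were called lower in OV-90, 23.3% in Kuramochi, 16.2% in OVSAHO and 23.4% in EFO-21.

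**Figure D1:**
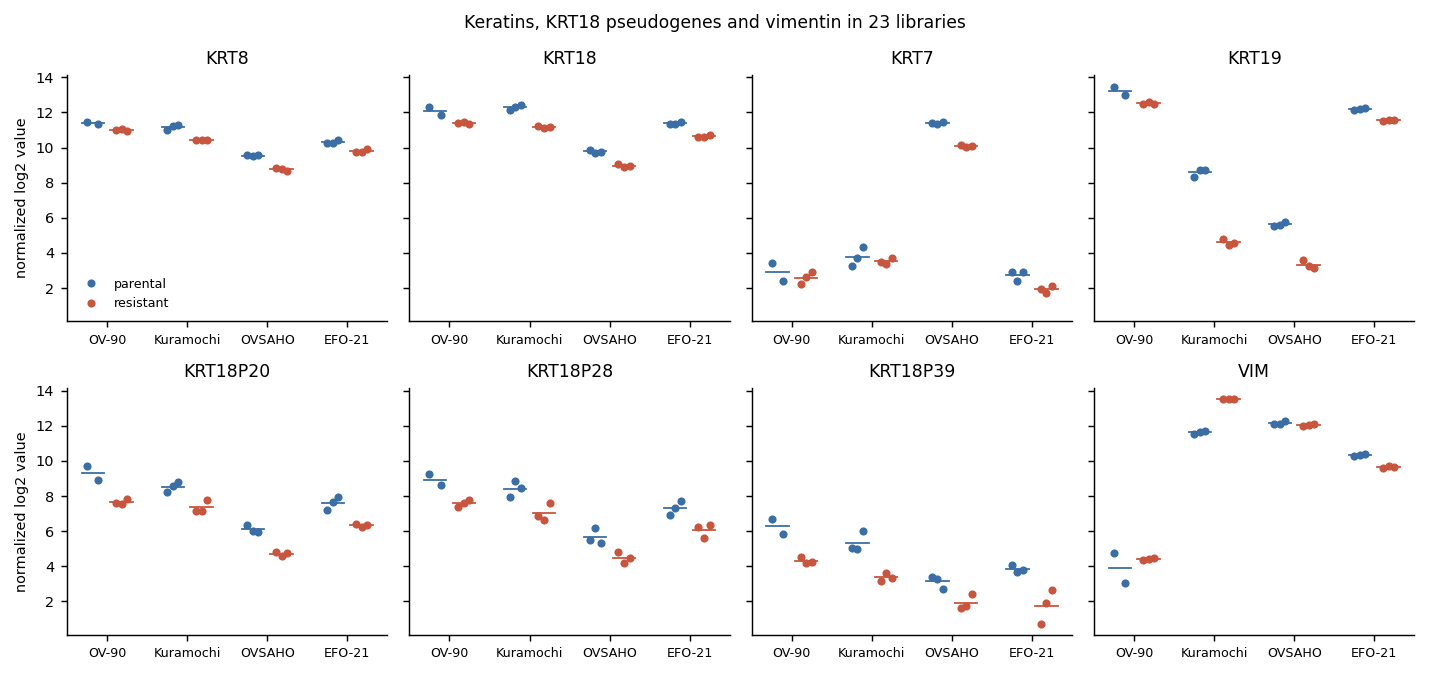
Normalized log2 value (vertical axis) of each of the 8 genes in the 23 libraries, by line (horizontal axis). Points are libraries, bars are group means, blue is parental and red is resistant. For KRT8, KRT18, KRT19 and the 3 pseudogenes every resistant library lies below every parental library of its line, while VIM is higher in resistant Kuramochi (13.5 against 11.62) and lower in resistant EFO-21 (9.65 against 10.31).

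In OV-90, KRT18 stood at 12.3 and 11.86 in the parental libraries and at 11.4, 11.44 and 11.34 in the resistant libraries (difference -0.69, SE 0.142, adjusted p = 0.0278). The Kuramochi values were 12.14, 12.33 and 12.45 in parental cells and 11.22, 11.12 and 11.18 in resistant cells (difference -1.13, SE 0.088, adjusted p = 0.000169). These groups did not overlap, and the resistant libraries lay closer to each other than the parental ones. OVSAHO had the lowest KRT18 level of the lines, with 9.86, 9.71 and 9.77 before and 9.04, 8.92 and 8.97 after acquisition of resistance (difference -0.81, SE 0.052, adjusted p = 0.000337). EFO-21 went from 11.35, 11.36 and 11.46 to 10.59, 10.63 and 10.7 (difference -0.75, SE 0.043, adjusted p = 8.58e-05). In all 4 lines every resistant library was below every parental one, a pattern that 2.04% of genes showed over the 4 lines, and 37.1%, 30.5%, 23.7% and 29.3% of genes in OV-90, Kuramochi, OVSAHO and EFO-21 alone. Without library 2, which leaves library 3 as the only parental OV-90 library, the OV-90 difference was -0.47. Without library 6 the Kuramochi difference was -1.06 (adjusted p = 0.000879). The OV-90 call was lost when any of the 3 resistant libraries was left out (adjusted p 0.0865 to 0.104), with the difference at -0.71 to -0.66.

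KRT8 showed the same order of groups in smaller steps. Parental OV-90 had 11.47 and 11.32, and resistant OV-90 had 10.98, 11.08 and 10.94 (difference -0.39, SE 0.079, adjusted p = 0.0263). The Kuramochi libraries held 11.02, 11.25 and 11.3 when parental and 10.45, 10.41 and 10.41 when resistant (difference -0.77, SE 0.081, adjusted p = 0.000562). In OVSAHO the values were 9.55, 9.52 and 9.55 against 8.85, 8.78 and 8.67 (difference -0.77, SE 0.051, adjusted p = 0.000358). No resistant library reached a parental one in any line, and without library 6 the Kuramochi difference was -0.71 (adjusted p = 0.00298). Without library 2 the OV-90 difference was -0.32. EFO-21 had 10.27, 10.28 and 10.45 against 9.75, 9.77 and 9.92 (difference -0.52, SE 0.068, adjusted p = 0.00171). The OV-90 call for KRT8 was lost without the mean-variance trend (adjusted p = 0.0545) and without any of the 3 resistant libraries (adjusted p 0.0769 to 0.106). KRT8 and KRT18 had a Pearson r of 0.96 over the 23 libraries, which share 4 lines, and their deviations from the group means had an r of 0.76. The spans of the genes overlap on opposite strands, and whether the counting used strand is not given in the sources used here, so reads from the shared stretch cannot be assigned with certainty.

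KRT19, the type I keratin that lacks most of the tail domain of other keratins, fell in all 4 lines and varied most between them. The drop was 3.96 in Kuramochi, to 0.0641 of the parental level, and 2.31 in OVSAHO, to 0.202 of it, but 0.71 in OV-90 and 0.64 in EFO-21. Kuramochi values went from 8.32, 8.71 and 8.72 to 4.82, 4.47 and 4.56 (SE 0.157, adjusted p = 1.64e-05), and the difference was -3.89 without library 6. OVSAHO values, the lowest of the parental lines, went from 5.55, 5.59 and 5.76 to 3.58, 3.25 and 3.13 (SE 0.166, adjusted p = 0.000457). The 2 lines with low parental KRT19 thus had the larger falls. OV-90 started at 13.44 and 13, the highest parental level, and ended at 12.49, 12.57 and 12.48 (SE 0.145, adjusted p = 0.0275). EFO-21 held 12.15, 12.19 and 12.23 when parental and 11.54, 11.56 and 11.55 when resistant (SE 0.031, adjusted p = 5.64e-05). In OV-90 the difference was -0.49 without library 2, and the call was lost without any of the 3 resistant libraries (adjusted p 0.0847 to 0.103). The 7 epithelial markers, EPCAM and CDH1 among them, averaged 6.65 in parental and 3.46 in resistant Kuramochi and 7.12 and 5.6 in OVSAHO, but 7.14 and 7.2 in OV-90 and 7.06 and 6.66 in EFO-21, and their part in the keratin changes was not tested.

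KRT7 was abundant in 1 line only. OVSAHO, where the parental libraries held 11.4, 11.37 and 11.44, had 10.13, 10.01 and 10.1 in resistant cells, a fall of 1.32 (SE 0.042, adjusted p = 4e-05), to 0.4 of the parental level. The other three lines held 1.73 to 4.34 in all libraries, low in a table whose library medians start at 6.01. In EFO-21 the values of 2.94, 2.4 and 2.93 went to 1.93, 1.73 and 2.14 (difference -0.82, SE 0.216, adjusted p = 0.0226). One of these resistant libraries lay at or under the 10th percentile of its library (1.7 to 1.87 over all libraries), so the fold is not well measured, and the call was lost without any of 4 of the 6 libraries (adjusted p 0.0602 to 0.069). OV-90 (difference -0.34, 95% interval -1.38 to 0.71, adjusted p = 0.526) and Kuramochi (-0.23, -0.98 to 0.52, adjusted p = 0.572) did not pass the test and their groups overlapped. The sign changed without library 2 in OV-90 (0.15) and without library 6 in Kuramochi (0.06), so no direction could be given for these lines.

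VIM moved in opposite directions. In Kuramochi it rose from 11.51, 11.67 and 11.68 to 13.5, 13.52 and 13.5, a difference of 1.88 (SE 0.064, adjusted p = 1.09e-05) or 3.69 times the parental level, in the line with the steepest fall of KRT19. Without library 6 the difference was 1.91. The share of all genes called higher there was 23.6%. In EFO-21 it fell from 10.25, 10.31 and 10.37 to 9.61, 9.69 and 9.65 (difference -0.66, SE 0.04, adjusted p = 0.000103). OVSAHO had the highest parental level, 12.08, 12.1 and 12.27, against 12.01, 12.04 and 12.08 in resistant cells (difference -0.11, 95% interval -0.25 to 0.03, adjusted p = 0.209). OV-90 was the only line with low VIM. Its parental libraries stood apart at 4.74 (library 2) and 3.02 (library 3), with the resistant libraries between them at 4.34, 4.43 and 4.48 (difference 0.53, 95% interval -0.87 to 1.94, adjusted p = 0.456). Without library 2 the difference was 1.4 and without library 3 it was -0.33, each against the other parental library only. No direction could therefore be given for OV-90. VIM overlaps the antisense RNA VIM-AS1, which fell in OVSAHO (-1.26, adjusted p = 0.0105), EFO-21 (-1.44, adjusted p = 0.0174) and OV-90 (-0.57, adjusted p = 0.0431) and changed by -0.1 in Kuramochi (adjusted p = 0.734).

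**Figure D2:**
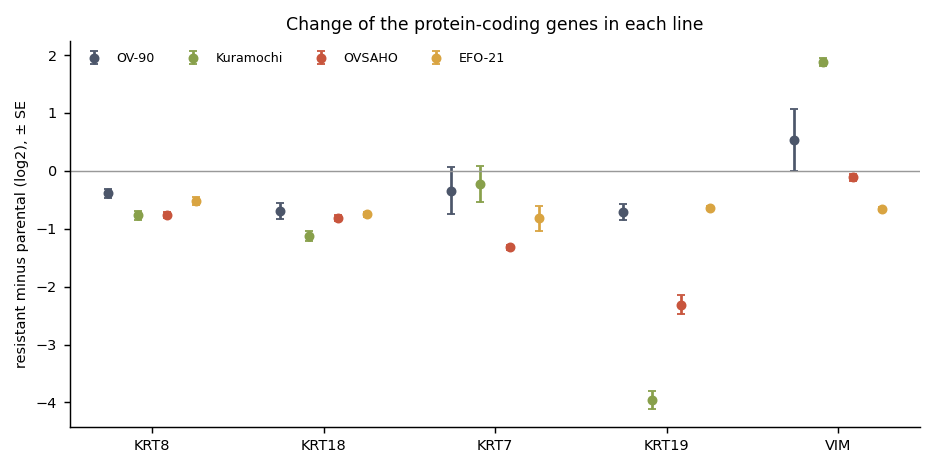
Resistant minus parental log2 difference (vertical axis) of the 5 protein-coding genes in each line, with the standard error of the limma fit as bars. KRT8 and KRT18 lie between -1.13 and -0.39 in the 4 lines, KRT19 reaches -3.96 in Kuramochi, and VIM runs from -0.66 in EFO-21 to 1.88 in Kuramochi.

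Averaged over the 4 lines, with line as a block, 4 of the 5 protein-coding genes were lower, against 16.6% of all genes. Libraries, and not the 4 lines, were the units of this fit, so its p-values cannot be read as a test across lines. KRT18 changed by -0.85 (SE 0.06, adjusted p = 2.34e-08), KRT8 by -0.62 (SE 0.05, adjusted p = 1.86e-07), KRT19 by -1.97 (SE 0.31, adjusted p = 9.14e-05) and KRT7 by -0.7 (SE 0.16, adjusted p = 0.00304). KRT7 rested on OVSAHO, without which the value was -0.47 (adjusted p = 0.0985). VIM averaged 0.41 (SE 0.24, adjusted p = 0.203), and 0.79 (adjusted p = 0.0351) when EFO-21 was left out. Without libraries 2 and 6, left out together after the data were seen, the averages were -0.8 for KRT18, -0.61 for KRT8, -1.91 for KRT19, -0.61 for KRT7 and 0.44 for VIM.

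The size of the change differed between lines for KRT19 in 5 of the 6 pairs of lines. The change in Kuramochi minus that in EFO-21 was -3.33 (SE 0.18, adjusted p = 3.89e-11) and minus that in OVSAHO -1.65 (SE 0.18, adjusted p = 5.81e-07), while OV-90 and EFO-21 differed by -0.07 (SE 0.19, adjusted p = 0.794). For KRT18 the change in Kuramochi minus that in EFO-21 was -0.38 (SE 0.12, adjusted p = 0.0172), and the change in OV-90 was less steep than in Kuramochi by 0.44 (SE 0.13, adjusted p = 0.00808). The first of these calls was lost without library 6 (-0.31, adjusted p = 0.0521). The second difference was 0.22 without library 3, with library 2 as the only parental OV-90 library. Of all genes, 56.1% passed for OV-90 against Kuramochi, 36.7% for OV-90 against OVSAHO, 47.7% for OV-90 against EFO-21, 45.9% for Kuramochi against OVSAHO, 48.4% for Kuramochi against EFO-21 and 32.4% for OVSAHO against EFO-21. The falls of KRT18 in OV-90, OVSAHO and EFO-21 differed among themselves by at most 0.12 (SE 0.13) in size, which did not pass the test. Without library 2, with library 3 as the only parental OV-90 library, the KRT18 change in OV-90 differed from that in OVSAHO by 0.34 and from that in EFO-21 by 0.28.

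The 3 pseudogenes were lower in resistant cells of every line, with differences of -2.07 to -1.17. For KRT18P20 the difference was -1.64 in OV-90, -1.18 in Kuramochi, -1.38 in OVSAHO and -1.27 in EFO-21. KRT18P28 gave -1.35, -1.38, -1.17 and -1.25, and KRT18P39 gave -1.96, -1.95, -1.22 and -2.07. Each of these differences was at least 2-fold in size, and since this contrast chose the 3 pseudogenes nothing is read from it. The smallest of these differences were -1.17 (KRT18P28, OVSAHO) and -1.18 (KRT18P20, Kuramochi). KRT18P15, another KRT18 pseudogene, passed the test in all 4 lines with changes of -0.95, -1.44, -0.89 and -1.12, under 2-fold in OV-90 and OVSAHO.

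KRT18P20 had 9.7 and 8.93 in parental OV-90 and 7.62, 7.56 and 7.82 in resistant OV-90. In Kuramochi it had 8.22, 8.58 and 8.78 against 7.16, 7.16 and 7.75, and in OVSAHO 6.37, 6 and 5.94 against 4.83, 4.58 and 4.77. The EFO-21 values were 7.23, 7.67 and 7.94 against 6.41, 6.25 and 6.36. The groups did not overlap in any line, and the highest parental value of OV-90 was that of library 2, without which the OV-90 difference was -1.26. Without library 6 the Kuramochi difference was -1.05.

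KRT18P28 was more variable within groups. Its values were 9.25 and 8.61 against 7.39, 7.59 and 7.75 in OV-90, and 7.95, 8.85 and 8.44 against 6.87, 6.61 and 7.62 in Kuramochi. OVSAHO had 5.48, 6.19 and 5.33 against 4.83, 4.21 and 4.45, and EFO-21 had 6.92, 7.34 and 7.71 against 6.26, 5.6 and 6.36. The resistant libraries remained below the parental ones in each line, and the narrowest gap was in Kuramochi (7.95 against 7.62). Without library 2 the OV-90 difference was -1.03, and without library 6 the Kuramochi difference was -1.37.

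KRT18P39 had the largest differences in 3 of the 4 lines. It had 6.7 and 5.83 against 4.52, 4.18 and 4.22 in OV-90, and 5.03, 4.96 and 6.01 against 3.18, 3.63 and 3.35 in Kuramochi. OVSAHO held 3.39, 3.28 and 2.73 against 1.63, 1.71 and 2.41, and EFO-21 held 4.05, 3.7 and 3.76 against 0.74, 1.9 and 2.65. In resistant OVSAHO 2 libraries, and in resistant EFO-21 1 library, lay at or under the 10th percentile of their library, so those differences of log2 values are not measured folds. Without library 2 the OV-90 difference was -1.52, and without library 6 the Kuramochi difference was -1.61.

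Subtracting the KRT18 value of the same library from that of the pseudogene shows how far the 2 moved together. For KRT18P20 this offset was -3.78 (SD 0.13, n = 3) in parental Kuramochi and -3.82 (SD 0.34, n = 3) in resistant Kuramochi, so the pseudogene and KRT18 fell by nearly the same amount there, with a difference of -0.04. In OVSAHO the difference of the 2 changes was -0.57 and in EFO-21 -0.52, and in OV-90 it was -0.96 (from -2.77, SD 0.23, n = 2, to -3.72, SD 0.18, n = 3). For KRT18P28 it was -0.66 in OV-90, -0.25 in Kuramochi, -0.37 in OVSAHO and -0.5 in EFO-21, with SDs within groups of 0.14 to 0.52. For KRT18P39 it was -1.27, -0.82, -0.41 and -1.32. All 12 differences were below 0, a direction favoured by choosing the pseudogenes for their falls. These were each at least 2-fold, while KRT18 itself passed that size in Kuramochi alone. The Kuramochi value of KRT18P20 turned to between 0.01 and 0.08 when library 6, 16 or 17 was left out.

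**Figure D3:**
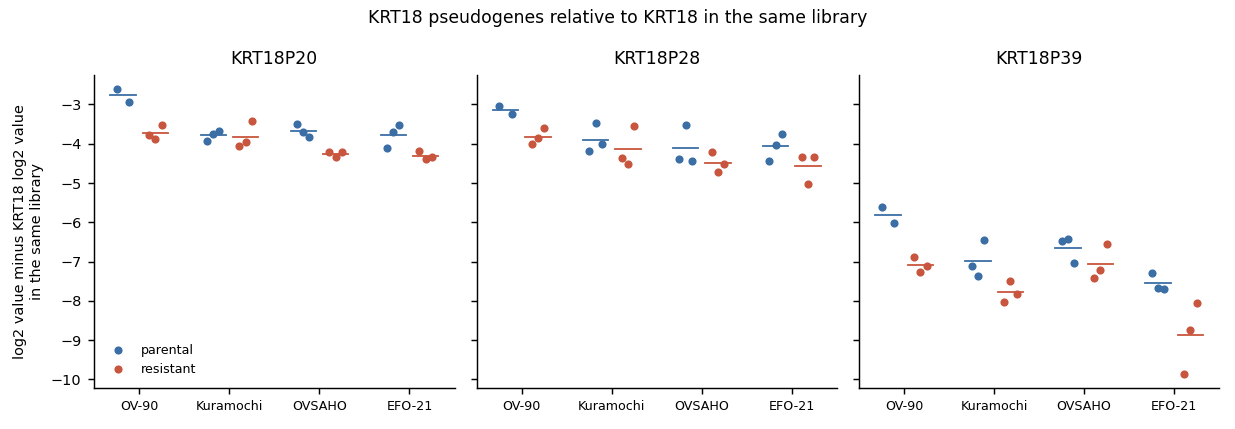
Log2 value of each pseudogene minus that of KRT18 in the same library (vertical axis), by line (horizontal axis). Points are libraries, bars are group means, blue is parental and red is resistant. Resistant means lie below parental means in every panel and line, by as little as 0.04 for KRT18P20 in Kuramochi and by as much as 1.32 for KRT18P39 in EFO-21.

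Over all 23 libraries the Pearson r with KRT18 was 0.96 for KRT18P20, 0.96 for KRT18P28 and 0.8 for KRT18P39. These values mostly reflect the 4 lines that the libraries share. When each group's mean was subtracted, the r with KRT18 was 0.71, 0.42 and 0.47. Among the pseudogenes themselves the same deviations had an r of 0.69 for KRT18P20 with KRT18P28, but 0.25 and 0.04 for KRT18P39 with the other pair.

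Beyond these 3, the table measures 30 other KRT18 pseudogenes, each from 1 exon, whereas KRT18 was measured from 23 exon features. Lower calls were made for 22 of the 30 in OV-90, 21 in Kuramochi, 5 in OVSAHO and 15 in EFO-21, and 1 higher call in each line. These lower calls are 73.3%, 70%, 16.7% and 50% of the list, of which the OVSAHO share is that of all genes there (16.2%) within 1 gene. Without library 6 the lower calls in Kuramochi were 18. No count is given without library 2, which would leave library 3 as the only parental OV-90 library. Their median change was -1.2, -1.22, -0.42 and -0.77, against -0.065, -0.019, 0.002 and 0.01 for all genes. For comparison, the 2236 genes that RefSeq lists as pseudogenes of any kind had medians of -0.38, -0.17, -0.04 and -0.08, and 31.4%, 25%, 10.6% and 24.3% of them were called lower. KRT18P10, KRT18P11, KRT18P15, KRT18P38 and KRT18P65 were lower in all 4 lines, and KRT18P1, KRT18P3, KRT18P16, KRT18P17, KRT18P18, KRT18P21, KRT18P25, KRT18P27, KRT18P29 and KRT18P34 in 3. KRT18P11, the closest to KRT18 in sequence (95.9% identity), changed by -0.85, -1.11, -0.66 and -0.8, close to the changes of KRT18 itself.

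KRT18P5 took 3 of the 4 higher calls. It was higher in OV-90 (0.43, adjusted p = 0.0268), OVSAHO (0.68, adjusted p = 0.0325) and EFO-21 (1.12), with -0.39 in Kuramochi (adjusted p = 0.196), and its r with KRT18 was 0.158. The higher call in Kuramochi belonged to KRT18P59 (1.35, adjusted p = 0.00135), named here after its value was seen, which had 0.42 in OV-90, 0.53 in OVSAHO and 0.26 in EFO-21 and has the lowest identity to KRT18 of the 33, 85.2%.

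Of the 30, 19 (63.3%) had an r over 0.8 with KRT18, and 18 (60%) had a mean change of the same sign as KRT18 in all 4 lines. KRT8 and its 28 measured pseudogenes gave 20 (71.4%) and 22 (78.6%). Across 1610 other pairs of a gene and a pseudogene named after it, from 723 parent genes, 42.5% had an r over 0.8 and 32.9% had the same sign in all 4 lines. Over the 33 KRT18 pseudogenes, which share a parent sequence, the rank correlation of the r with KRT18 was 0.83 with the mean level and 0.58 with the percent identity. Identity ranged from 85.2% to 95.9%, with a median of 92.1%.

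**Figure D4:**
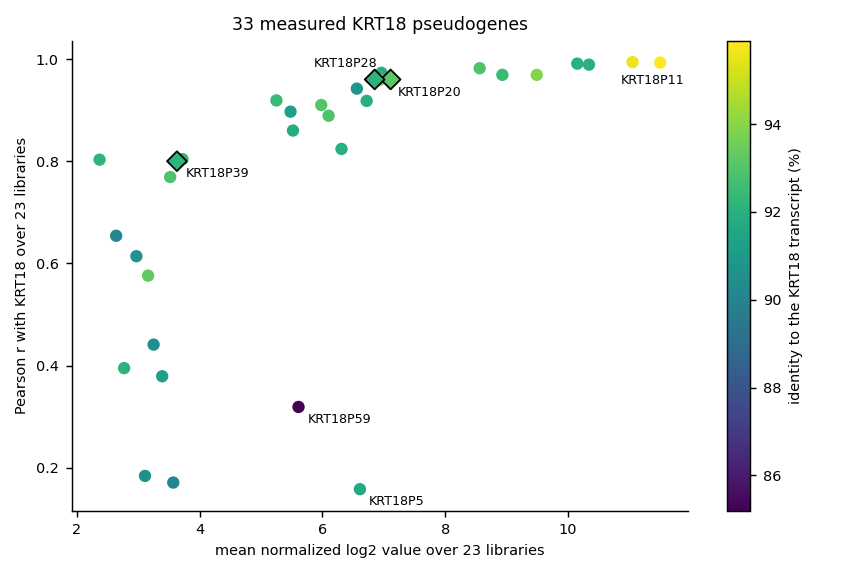
Pearson r with KRT18 over 23 libraries (vertical axis) against the mean normalized log2 value (horizontal axis) of the 33 measured KRT18 pseudogenes. Colour gives the percent identity to the KRT18 transcript and diamonds mark KRT18P20, KRT18P28 and KRT18P39. Pseudogenes with high values have r near 1, those with low values spread from 0.17 to 0.8, and KRT18P5 (r of 0.158) and KRT18P59 (r of 0.319) stand below others of their level.

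The genes whose values were most like KRT18 over the 23 libraries were all KRT18 pseudogenes, namely KRT18P10 (r of 0.994), KRT18P11 (0.993), KRT18P38 (0.991), KRT18P65 (0.989) and KRT18P15 (0.982). The mean of KRT18P20, KRT18P28 and KRT18P39 was most like COX6C (0.966), which encodes a subunit of cytochrome c oxidase, followed by KRT18P15 (0.965), KRT8P36 (0.949), KRT18P16 (0.947) and KRT8P9 (0.946). VIM was most like A1BG (0.987), GALNT18 (0.987), UBTD1 (0.986), MAGED4 (0.985) and RTL5 (0.983). These values are descriptions of 23 points that share 4 lines.

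Many pseudogenes of the partner keratin were lower as well. Among the 28 measured KRT8 pseudogenes, 19 were called lower in OV-90, 23 in Kuramochi, 7 in OVSAHO and 15 in EFO-21, against 17.9%, 23.3%, 16.2% and 23.4% of all genes, with medians of -0.93, -1.1, -0.61 and -0.57. These are 67.9%, 82.1%, 25% and 53.6% of the list, and without library 6 the count in Kuramochi was 21. KRT8P9 (-1.78, -1.32, -1.07 and -0.98) and KRT8P49 (-0.93, -1.15, -0.85 and -0.6) were lower in all 4 lines. The single measured KRT19 pseudogene, KRT19P1, changed by -1, -3.15, -0.94 and -0.99, with its largest fall in Kuramochi like KRT19 itself, and passed the test in all lines but OVSAHO (adjusted p = 0.284).

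Keratins of stratified and other epithelia varied by line. Of 9 other type I keratins, 1 was called lower in OV-90 (KRT15, named after its value was seen), 3 in Kuramochi, 7 in OVSAHO and 5 in EFO-21, or 11.1%, 33.3%, 77.8% and 55.6%, against 17.9%, 23.3%, 16.2% and 23.4% of all genes. Of 12 other type II keratins, 2 were called lower in OV-90, 5 in Kuramochi, 7 in OVSAHO and 2 in EFO-21, or 16.7%, 41.7%, 58.3% and 16.7%. The medians in OVSAHO were -2.81 and -1.55. KRT17, a keratin of basal cells and skin appendages, fell in Kuramochi (-5.33, adjusted p = 5.35e-05), OVSAHO (-4, adjusted p = 0.000246) and EFO-21 (-2.66, adjusted p = 0.00016), with -2.11 in OV-90 (adjusted p = 0.126). KRT23 changed by -0.95 (adjusted p = 0.231), -3.68, -1.22 and -1.4 in the same order and passed in the last 3. None of these 12 other type II keratins passed in 3 lines in 1 direction. The largest mean changes among them were those of KRT6A (-4.59, -4.53, -7.27 and -0.44) and KRT5 (-3.29, -5.91, -4.86 and 0.74), of which the OV-90 values rested on library 2 and did not pass the test (adjusted p = 0.122 and 0.176).

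Of 12 other intermediate filament genes, 3 were called lower and 2 higher in OV-90, 1 and 5 in Kuramochi, 1 and 2 in OVSAHO and 2 and 6 in EFO-21. Without library 6 the 5 higher calls in Kuramochi were 2. Lower calls were 25%, 8.33%, 8.33% and 16.7% of the list in OV-90, Kuramochi, OVSAHO and EFO-21. Of all genes, 17.9%, 23.3%, 16.2% and 23.4% were called lower and 18.1%, 23.6%, 17.1% and 25% higher in the 4 lines. LMNB2, which encodes the nuclear lamin B2, was higher in OV-90 (0.72, adjusted p = 0.0364), OVSAHO (0.41, adjusted p = 0.00148) and EFO-21 (0.39, adjusted p = 0.00411). Among 15 desmosome genes and keratin linkers, 6 were called higher in OV-90, while 6 were lower and 3 higher in Kuramochi, 6 and 4 in OVSAHO and 8 and 1 in EFO-21, with 40%, 40% and 53.3% of the list lower in the last 3 lines, against 23.3%, 16.2% and 23.4% of all genes. JUP, the desmosome protein plakoglobin, fell by 0.56 in Kuramochi, 0.63 in OVSAHO and 0.52 in EFO-21, with -0.13 in OV-90 (adjusted p = 0.208).

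Genes next to KRT18 and its pseudogenes on the chromosome were also examined. KRT8, which overlaps KRT18, fell in all 4 lines as given above. KRT78, on the lower side of both, fell in Kuramochi (-0.87, adjusted p = 0.0465) and EFO-21 (-0.82, adjusted p = 0.00418), with -0.5 in OV-90 and -0.47 in OVSAHO. On the higher side, EIF4B passed the test in EFO-21 (-0.66, adjusted p = 3.67e-05) and had 0.22, -0.17 and -0.11 in OV-90, Kuramochi and OVSAHO. SLC41A2 and NOPCHAP1, on either side of KRT18P20, changed by 0.1 and -0.87 in OV-90 (adjusted p = 0.645 and 0.03) and passed the test in none of the other three lines. LAMC1, the measured gene on the higher side of KRT18P28, was higher in OV-90 (1.21, adjusted p = 0.0233) and OVSAHO (0.73, adjusted p = 0.00147) and lower in Kuramochi (-0.93, adjusted p = 0.0223), and HMGN1P4 on the lower side was higher in OVSAHO (0.85, adjusted p = 0.00208). RAPH1 and PARD3B, the measured neighbours of KRT18P39 at 228960 and 779882 bases, were higher in OV-90 by 1.41 and 0.99. RAPH1 was also higher in OVSAHO (0.86, adjusted p = 0.0119), with 1.06 in Kuramochi and 0.58 in EFO-21, while PARD3B fell in Kuramochi (-1.11, adjusted p = 0.00886) and was higher in EFO-21 (0.34, adjusted p = 0.0409), with 0.16 in OVSAHO.

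Levels were also compared between the parental lines, with a test for the 5 protein-coding genes. The parental values of the pseudogenes are one side of the contrast that chose them, so theirs are a description. Of all genes, 74% passed for OV-90 against Kuramochi, 74.6% for OV-90 against OVSAHO, 76.2% for OV-90 against EFO-21, 67.6% for Kuramochi against OVSAHO, 71.9% for Kuramochi against EFO-21 and 73.6% for OVSAHO against EFO-21. KRT18 was highest in Kuramochi (12.31, SD 0.16, n = 3) and OV-90 (12.08, SD 0.31, n = 2), followed by EFO-21 (11.39, SD 0.06, n = 3) and OVSAHO (9.78, SD 0.08, n = 3). The Kuramochi and OV-90 levels differed by 0.23 (SE 0.1, adjusted p = 0.0461), a call that was lost without the trend and after recentring. KRT8 followed with 11.4 in OV-90, 11.19 in Kuramochi, 10.33 in EFO-21 and 9.54 in OVSAHO. OV-90 and Kuramochi differed by 0.21 (adjusted p = 0.0292), a call that was lost without the trend (adjusted p = 0.0506). Without libraries 2 and 6 the difference was 0.19, with library 3 as the only parental OV-90 library.

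All 3 pseudogenes were ordered like KRT8, with OV-90 highest and OVSAHO lowest. KRT18P20 averaged 9.31 in OV-90, 8.53 in Kuramochi, 7.61 in EFO-21 and 6.1 in OVSAHO, where parental libraries of OV-90 and Kuramochi did not overlap (8.93 to 9.7 and 8.22 to 8.78). For KRT18P28 (8.93, 8.42, 7.32 and 5.67) the libraries of OV-90 and Kuramochi overlapped, and so they did for KRT18P39 (6.26, 5.33, 3.84 and 3.13).

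KRT19 was highest in OV-90 (13.22), then EFO-21 (12.19), Kuramochi (8.58) and OVSAHO (5.63), and neighbours in this order differed by 1.03 (adjusted p = 2.97e-06), 3.61 (adjusted p = 1.23e-14) and 2.95 (adjusted p = 2.71e-13). KRT7 was high in OVSAHO alone (11.4, against 3.76 in Kuramochi), and OV-90 and EFO-21 did not differ beyond their spread (0.17, SE 0.29, adjusted p = 0.615). VIM was highest in OVSAHO (12.15) and Kuramochi (11.62), which differed by 0.53 (SE 0.24, adjusted p = 0.0617, and 4.03e-07 without libraries 2 and 6), then EFO-21 (10.31), and lowest in OV-90 (3.88). Before resistance OV-90 was thus the line with the highest KRT19 and the lowest VIM, and OVSAHO the line with the lowest KRT8, KRT18 and KRT19 and the highest KRT7.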

How the data were processed

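RNA-seq of 23 libraries was deposited as 1 table of 21658 genes. Per the paper's methods, the authors sequenced stranded mRNA libraries in pairs of 150 bases, aligned them to GRCh37/hg19, left out exons with under 10 reads in over 80% of samples, and summarised the reads on exons and junctions of a gene by robust linear fitting. The values the authors deposited are log2 expression, quantile normalized, marked as a robust fit for 16448 genes and as a mean of log2 exon values for 5210. Read counts are not in the table, so depth is unknown and only the spread between libraries gives the precision. The columns name the line and resistance and carry a library number from 2 to 24, used here as a name, and no column was left unused as another series' sample (0 columns). Labels call the libraries biological replicates. P-values within lines and between lines measure the spread between these libraries. Those of the average over lines also hold the differences in change between lines. Separate selections of resistant cells are not marked in the labels, so no p-value can be said to measure the spread between them.

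Each line was fitted alone with limma 3.58.1 (R 4.3.3) (lmFit, then eBayes with trend), with no filter and no pseudocount. Differences between lines and parental levels used 1 fit of the 8 group means, and the average used line as a block. Tests are two-sided, with Benjamini-Hochberg adjustment over all genes and a threshold of 0.05. An exact permutation test of 3 against 3 libraries cannot go below 0.1, nor one of 2 against 3 below 0.2. The method was tested on simulated data. Symbols for 20745 genes (95.8%) came from RefSeq (GRCh38.p14, names only), and positions and sequences from GENCODE v44lift37 on GRCh37, the authors' build. The members and lists were chosen with earlier results of these data known. Named were the 8 members, in related lists the genes past the test in at least 3 lines in 1 direction (otherwise the 2 with the largest mean change), the 5 genes most like KRT18, VIM and the pseudogene mean, and measured neighbours. Genes of the full pseudogene list and most KRT8 pseudogenes are given as counts only. Alternatives were no trend, a filter at the 25th percentile, recentred libraries, a joint fit, and leaving out each library or line. Leaving out libraries 2 and 6 together was added after seeing the data.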

Additional observations from a re-analysis of the deposited data

Results flagged for a closer look

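The resistant minus parental change differed between lines, by the test of the difference itself (limma, 8 group means, adjusted over all genes), in 15 of the 30 comparisons of 5 genes over 6 pairs of lines. That is 50% of them, and between 32.4% and 56.1% of all genes passed the same tests, depending on the pair. The comparisons share libraries, so they are not independent. For KRT19 the change in OV-90 minus that in Kuramochi was 3.26, OV-90 minus OVSAHO was 1.6, Kuramochi minus OVSAHO was -1.65, Kuramochi minus EFO-21 was -3.33 and OVSAHO minus EFO-21 was -1.67.

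For VIM the change in OV-90 minus that in Kuramochi was -1.35 and OV-90 minus EFO-21 was 1.19, which both involve the 2 unlike parental OV-90 libraries. Without library 2 they were -0.49 and 2.05, and without library 3 they were -2.21 and 0.33. Kuramochi minus OVSAHO was 1.99 and Kuramochi minus EFO-21 was 2.54. VIM averaged 11.62 in parental and 13.5 in resistant Kuramochi, and 10.31 and 9.65 in EFO-21. The tests of these differences also used a spread shared with the OV-90 libraries.

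For KRT18 the OV-90 minus Kuramochi value was 0.44, Kuramochi minus OVSAHO was -0.32 and Kuramochi minus EFO-21 was -0.38. For KRT8 the OV-90 minus Kuramochi value was 0.37 and OV-90 minus OVSAHO was 0.38. The one difference for KRT7 was Kuramochi minus OVSAHO at 1.09.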

How the results depend on the processing

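No paired analysis was possible because the columns of the table carry no replicate numbers. Counts of results that kept their side of the threshold were 180 of 195 for changes within lines and 380 of 405 for differences between lines. They were 28 of 30 for averages. No such count is given for parental levels, since it would include the pseudogenes, whose parental values are a description. A change of sign was counted as kept where neither fit passed the test, so these counts do not all mean a kept direction. Without the mean-variance trend, KRT8 in OV-90 was -0.39 (adjusted p = 0.0545), the parental OV-90 minus Kuramochi level was 0.21 for KRT8 (0.0506) and -0.23 for KRT18 (0.0687), and the KRT18 change in Kuramochi minus OVSAHO was -0.32 (0.062). After recentring the last 2 were -0.14 (0.204) and -0.32 (0.0521), and KRT18P39 in parental OV-90 minus Kuramochi was 1.01. Without OVSAHO the KRT7 average was -0.47 (0.0985), and without EFO-21 the VIM average was 0.79 (0.0351). Without libraries 2 and 6, an alternative chosen after seeing the data, parental OV-90 minus Kuramochi was 0.19 for KRT8 and 0.53 for KRT18P20. Parental Kuramochi minus OVSAHO was -0.56 for VIM, and higher calls in Kuramochi were 1 for KRT8 pseudogenes and 2 for other type I keratins. The causes were not tested.

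With each library left out in turn, the OV-90 change ran from -0.47 to -0.32 for KRT8, -0.91 to -0.47 for KRT18, -0.92 to -0.49 for KRT19, -0.33 to 1.4 for VIM, -2.03 to -1.26 for KRT18P20, -1.67 to -1.03 for KRT18P28 and -2.39 to -1.52 for KRT18P39. KRT7 ran from -1 to -0.72 in EFO-21, from -0.83 to 0.15 in OV-90 and from -0.49 to 0.06 in Kuramochi. All ranges with OV-90 include fits in which library 2 or 3 was the only parental OV-90 library. The KRT18P20 change minus the KRT18 change in Kuramochi ran from -0.24 to 0.08, and was 0.01 without library 6, 0.08 without library 16 and 0.03 without library 17. Differences of changes that crossed the threshold were OV-90 minus Kuramochi for KRT18 (0.22 to 0.66), OV-90 minus OVSAHO for KRT7 (0.5 to 1.48), KRT8 (0.3 to 0.45), KRT18 (-0.1 to 0.34) and VIM (-0.22 to 1.5), Kuramochi minus OVSAHO for KRT7 (0.83 to 1.38) and KRT18 (-0.41 to -0.25), Kuramochi minus EFO-21 for KRT7 (0.33 to 0.88), KRT8 (-0.33 to -0.2) and KRT18 (-0.46 to -0.31), and OVSAHO minus EFO-21 for KRT8 (-0.31 to -0.2).

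Summed over the 4 lines, a 2-fold minimum changed the lower calls of other KRT18 pseudogenes from 63 to 40 and the higher ones from 4 to 2, of KRT8 pseudogenes from 64 to 32 and from 2 to 0 (limma, and also 0 at an unadjusted p under 0.05), the lower calls of KRT19P1 from 3 to 1 and of linkers from 20 to 12, the higher calls of other type II keratins from 5 to 2 and of other intermediate filament genes from 15 to 6, and those of all pseudogenes from 2042 to 787 lower and 1101 to 344 higher. The filter at the 25th percentile left 5 of 16 lower calls of other type I keratins, 1 lower and 1 higher of other type II keratins and 4 lower of other intermediate filament genes, since fewer genes were tested. The depth of the libraries is unknown, so no limit of detection could be given for the values near the bottom.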

Other observations

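Library 2 (parental OV-90) and library 6 (parental Kuramochi) shared high values of KRT5 (6.82 and 7.13), KRT14 (7.02 and 6.79) and KRT16 (5.93 and 4.99). The other parental Kuramochi libraries held KRT14 at 2.37 and 1.91 and KRT16 at 1.32 and 1.24, but KRT5 at 5.73 and 5.75. KRT6A was at 7.99 in library 6 and at 6.04 and 6.3 in the others, and KRT17 at 7.83 against 6.95 and 7.45. All 3 parental OVSAHO libraries held KRT14 at 6.73 to 7.16, and the resistant OVSAHO libraries at 0.61 to 1. In library 3, the other parental OV-90 library, KRT14 was at 1.43.

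CDH1, the adhesion protein of epithelial cells, averaged 4.62 in parental and 1.61 in resistant Kuramochi, where all 3 resistant libraries lay at or under their 10th percentile, and EPCAM averaged 6.47 and 2.69. In OVSAHO CDH1 averaged 8.14 and 6.47 and EPCAM 8.83 and 5.82, where the VIM difference was -0.11, while GRHL2 averaged 1.28 and 2.01. In OV-90 CDH1 averaged 8.56 and 9.21, EPCAM 12.3 and 12.32, CLDN7 5.97 and 6.56 and GRHL2 2.05 and 3.37. CLDN3 averaged 7.45 and 6.7 there, CLDN4 7.81 and 7.12 and ESRP1 5.87 and 5.12. In EFO-21 CDH1 averaged 4.65 and 6.03 and GRHL2 2.29 and 3.49, while EPCAM averaged 10.66 and 10.45. The other markers there averaged 4.28 and 1.73 for ESRP1, 5.17 and 3.69 for CLDN7, 10.62 and 9.93 for CLDN3 and 11.74 and 11.33 for CLDN4. These values stand beside the changes of KRT19 and VIM in the same libraries and their part in them was not tested.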
